A study of Mus musculus with 8 samples.

Results

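Nfil3, the C/EBP genes Cebpa, Cebpb, Cebpd and Cebpg, and the BATF genes Batf, Batf2 and Batf3 encode basic leucine zipper (bZIP) transcription factors, proteins that bind DNA as pairs held together by a leucine zipper. They were chosen by name as the bZIP genes of the circuit that acts on the enhancers of Irf8 and Zeb2 in dendritic cells, and make up 8 of the 55487 genes in each count file. All 8 passed the filter on low counts that kept 20631 genes. The RNA came from untreated C57BL/6 mice, whose splenic conventional dendritic cells (cDC) were sorted at 100000 cells per sample. The 4 groups of 2 libraries were cDC1 from Zeb2 -165(d1+2+3) animals, cDC1 from wild-type (WT) animals, cDC2 from Irf8 +32-/- animals and cDC2 from WT animals. They are called Zeb2 mutant cDC1, WT cDC1, Irf8 mutant cDC2 and WT cDC2 below. By their names, the alleles change an enhancer of Zeb2 and remove an enhancer of Irf8 from both copies, in the animal rather than in a chosen cell type. Each mutant was analysed here in 1 cell type. Ages, sexes, sort gates and the number of animals behind a library are not stated in the labels. The libraries carried the labels' replicate numbers 2 and 3 and held 49380686 to 58611821 counts. Nothing states that they came from separate animals, so the p-values below reflect the spread among these libraries alone, which may be technical.

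As background, cDC1 take up dead cells and present antigen to CD8 T cells, cDC2 mainly serve CD4 T cells, and the choice between them is set by a chain of transcription factors. NFIL3 and C/EBP proteins bind the same kind of DNA site in the Zeb2 enhancer, NFIL3 as a repressor and C/EBP alpha as an activator, and those sites are what the d1+2+3 alteration destroys. ZEB2 opposes ID2 and the cDC1 fate, and BATF3 acts with IRF8 at the Irf8 +32 enhancer to hold Irf8 on in committed cDC1. These roles concern progenitors and cell fate, whereas the libraries are of mature cells.

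The sorted cells were checked against markers of their labelled type. The summed level of 8 cDC1 markers such as Xcr1 and Clec9a was 9160 to 9190 CPM (counts scaled to a common library size, with TMM factors) in Zeb2 mutant cDC1 and 6680 to 8760 CPM in WT cDC1, against 1620 to 1800 CPM in Irf8 mutant cDC2 and 1680 to 1860 CPM in WT cDC2. The summed level of 9 cDC2 markers such as Sirpa and Esam was 25.9 to 32.8 and 30.2 to 45.0 CPM in the same cDC1 groups, against 1920 to 2010 CPM in Irf8 mutant cDC2 and 2090 to 2260 CPM in WT cDC2. Most of the cDC1 marker sum in cDC2 was Wdfy4, at 1624 ± 116 CPM in Irf8 mutant cDC2 and 1683 ± 126 CPM in WT cDC2. Xcr1 averaged 6.22 and 3.59 CPM in those groups, and Clec9a 8.05 and 10.7 CPM. Wdfy4 also had a wide spread in WT cDC1, at 3183 ± 1510 CPM (SD, n = 2 each). In all groups each of these 17 markers had counts. Of the cDC2 markers, 1 was called lower in Zeb2 mutant cDC1, Cd209a, at 0.392 ± 0.0193 CPM there and 8.51 ± 4.22 CPM in WT cDC1 (SD, n = 2 each; edgeR adjusted p = 0.00322). Clec10a and Esam had log2 fold changes of -1.89 and -0.82 in that comparison, called by DESeq2 (adjusted p = 0.000424 and 0.0293) and not by edgeR (0.117 and 0.260). The median of the 9 cDC2 markers there was -0.05. Among cDC1 markers, DESeq2 alone called Itgae in Zeb2 mutant cDC1 (log2 fold change 1.08, DESeq2 adjusted p = 3.4e-05, edgeR 0.0871). In Irf8 mutant cDC2 it alone called Xcr1 (0.79, DESeq2 adjusted p = 0.0006, edgeR 0.135) and Tlr3 (-1.13, DESeq2 adjusted p = 0.00332, edgeR 0.344). The genes whose enhancers were altered did not pass the test in the cells sequenced: Zeb2 averaged 2.89 ± 0.922 CPM in Zeb2 mutant cDC1 and 2.10 ± 0.00934 CPM in WT cDC1 (edgeR adjusted p = 0.477). Irf8 averaged 133 ± 18.9 CPM in Irf8 mutant cDC2 and 115 ± 15.9 CPM in WT cDC2 (SD, n = 2 each; edgeR adjusted p = 0.914). These levels therefore do not check the genotype labels.

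The promoters of 3 genes are shown because their transcripts carried the main patterns: Cebpb was the member that differed most between the cell types, Batf3 the member called higher in cDC1 in both comparisons of cell types, and Cebpa the member whose log2 fold change had opposite signs in wild types and mutants beyond the overlap of libraries. Each is 300 bases of RefSeq sequence of GRCm38.p6, 250 before and 50 after the start that RefSeq gives, 5′ to 3′. The Batf3 window lies wholly inside the span of the counted gene, which begins at 191097847. It therefore does not cover the sequence around that position. Capitals mark matches to TGACG, the core of the cAMP response element, or to TATAAA, the TATA box, on either strand.
Cebpb, chr2:167688665-167688964, plus strand: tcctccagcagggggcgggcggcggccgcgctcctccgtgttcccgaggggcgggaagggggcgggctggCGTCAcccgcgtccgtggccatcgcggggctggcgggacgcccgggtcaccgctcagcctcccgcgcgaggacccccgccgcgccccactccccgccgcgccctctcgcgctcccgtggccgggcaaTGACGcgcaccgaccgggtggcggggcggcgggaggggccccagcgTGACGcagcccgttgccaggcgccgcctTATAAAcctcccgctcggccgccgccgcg
Cebpa, chr7:35119043-35119342, plus strand: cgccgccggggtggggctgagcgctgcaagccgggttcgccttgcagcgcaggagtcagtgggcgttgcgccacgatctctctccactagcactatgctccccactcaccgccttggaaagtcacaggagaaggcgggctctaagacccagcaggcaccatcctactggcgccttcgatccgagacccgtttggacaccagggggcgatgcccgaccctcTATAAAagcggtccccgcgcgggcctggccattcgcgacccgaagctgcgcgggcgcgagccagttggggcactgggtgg
Batf3, chr1:191098164-191098463, plus strand: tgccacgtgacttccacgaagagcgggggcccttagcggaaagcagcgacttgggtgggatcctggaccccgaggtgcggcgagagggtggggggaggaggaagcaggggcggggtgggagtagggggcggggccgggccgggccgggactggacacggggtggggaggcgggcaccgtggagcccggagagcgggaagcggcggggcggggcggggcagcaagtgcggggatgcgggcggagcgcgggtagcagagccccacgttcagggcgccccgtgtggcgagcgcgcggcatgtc
RefSeq gave such a window for 6 of the 8 members. TGACG stood 3 times in the Cebpb window and once each in those of Nfil3 and Batf, and 20.8% of the 32851 promoter windows held it. TATAAA stood in the Cebpb and Cebpa windows, as in 13.6% of all windows. Counted from the start that RefSeq gives, it began at -30 for Cebpa and at 21, past the start, for Cebpb. These 2 strings were chosen after the sequences had been read. The Cebpb window is rich in G and C (80.7%), like those of Nfil3 (81.7%) and Batf3 (75.7%), while the median over all windows was 52.7%. None of the 6 windows held the C/EBP strings TTGCGCAA or TTNNGNAA, the NFIL3 string TTANGTAA, the AP-1 string TGANTCA, the full element TGACGTCA, the AP-1 and IRF composite element (AICE), or the E-box CACCTG. All were searched on both strands with N for any base. The composite was searched in a single form only, an IRF part, a fixed gap of any bases and then the AP-1 string. Its share of all windows holds for that form alone. Forms with another gap or with the IRF part inverted were not searched. Since the 6 windows held no TGANTCA on either strand, they held no such form built on that string. Forms with another AP-1 part were not tested. TTNNGNAA, which includes TTGCGCAA (0.183%), stood in 40.7% of all windows, TTANGTAA in 2.32%, TGANTCA in 7.81%, TGACGTCA, which includes TGACG, in 1.79%, the composite, which includes TGANTCA, in 0.149% and CACCTG in 20.2%.

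Wild-type cDC1 and cDC2 differed in 5 of the 8 members. Batf3 and Batf2 were higher in cDC1, and Cebpb, Cebpd and Cebpa were lower. Of all genes tested, edgeR's quasi-likelihood test with Benjamini-Hochberg adjustment called 30.1%, with 14.2% higher and 15.9% lower, so a call in this comparison was common. At an unadjusted p under 0.05 there were 7 members and 40.0% of all genes, DESeq2 called 6 members and 36.3% of the genes it tested, and the groups did not overlap for 7 members and 65.0% of all genes. The number of members called by edgeR was 2 without WT cDC2 replicate 2 and 3 without WT cDC2 replicate 3. Since the libraries are bulk samples, fewer cells with a transcript and less of it per cell cannot be told apart.

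Batf3 encodes the factor that mature splenic cDC1 depend on (ENSMUSG00000026630, GRCm38 chromosome 1, 191097847 to 191108945, plus strand). It was at 99.1 and 102 CPM in WT cDC1, against 48.4 and 50.1 CPM in WT cDC2. The groups lay far apart for their spread, and the difference was 2.05-fold (log2 fold change 1.03, SE 0.127, edgeR adjusted p = 0.000153). Its partner gene Irf8 differed more, and was at 3452 ± 267 CPM in WT cDC1 and 115 ± 15.9 CPM in WT cDC2 (SD, n = 2 each). Batf2, which can stand in for Batf3 in inflamed mice, was scarce in every library, with 86 and 101 counts in WT cDC1 and 23 and 22 counts in WT cDC2. That is 1.49 and 1.73 CPM against 0.418 and 0.391 CPM (log2 fold change 1.98, SE 0.501, edgeR adjusted p = 0.0126). The Batf2 call was lost without either WT cDC2 library (edgeR adjusted p = 0.0806 without replicate 2 and 0.0915 without replicate 3). Batf, known for its part in T and B cells, was at 17.8 and 13.0 CPM in WT cDC1 and 17.3 and 11.5 CPM in WT cDC2, groups that overlapped (edgeR adjusted p = 0.821).

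Cebpb had the largest difference of the C/EBP genes. It encodes C/EBP beta, an activator of inflammatory genes in monocytes and macrophages (ENSMUSG00000056501, chromosome 2, 167688915 to 167690418, plus strand, 1 exon). It was at 5.27 and 4.995 CPM in WT cDC1, against 41.2 and 46.2 CPM in WT cDC2. Both cDC2 libraries were far above both cDC1 libraries, an 8.51-fold lower level in cDC1 (log2 fold change -3.09, SE 0.155, edgeR adjusted p = 3.36e-07). The gene shares 312 of its 1504 exonic bases with Tmem189 on the other strand, and the library kit does not mark strand. Tmem189 was at 65.5 CPM in WT cDC1 and 51.5 CPM in WT cDC2, the opposite order.

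Cebpd, which encodes C/EBP delta, an early inflammatory member of the family (ENSMUSG00000071637, chromosome 16, 15887286 to 15891031, plus strand, 1 exon), was at 7.97 and 6.50 CPM in WT cDC1, against 16.2 and 15.0 CPM in WT cDC2. The groups did not overlap (log2 fold change -1.11, SE 0.256, edgeR adjusted p = 0.00811), but the call was lost without WT cDC2 replicate 2 (edgeR adjusted p = 0.0604). Cebpd shares 562 of its 3746 exonic bases with Spidr on the other strand, which stood in the same order (14.0 CPM in WT cDC1 and 29.3 CPM in WT cDC2). The part of such shared reads in the Cebpd result was not tested. Cebpa encodes C/EBP alpha, the factor that drives myeloid progenitors (ENSMUSG00000034957, chromosome 7, 35119293 to 35121928, plus strand, 1 exon). It was at 15.3 and 11.1 CPM in WT cDC1, against 21.7 and 19.3 CPM in WT cDC2 (log2 fold change -0.63, SE 0.216, edgeR adjusted p = 0.0484). This call lay at the threshold. It was lost without WT cDC1 replicate 3 (edgeR adjusted p = 0.203), WT cDC2 replicate 2 (0.261) or 3 (0.118), Zeb2 mutant cDC1 replicate 2 (0.0622) or 3 (0.0654), or Irf8 mutant cDC2 replicate 3 (0.0504), and held without either of the other libraries. It was also lost in a fit of the 2 groups alone (0.0667).

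Cebpg and Nfil3 did not pass the test between wild types. Cebpg, a partner that lacks an activation domain of its own (ENSMUSG00000056216, chromosome 7, 35046422 to 35056573, minus strand), was at 52.7 and 40.7 CPM in WT cDC1 and 38.3 and 31.5 CPM in WT cDC2 (log2 fold change 0.42, SE 0.175, edgeR adjusted p = 0.1). Nfil3, the most abundant member per length in every library (ENSMUSG00000056749, chromosome 13, 52967209 to 52981073, minus strand), was at 216 and 134 CPM in WT cDC1, against 281 and 251 CPM in WT cDC2. The cDC2 libraries were both higher, yet the cDC1 libraries differed from each other by about as much as the group means did (log2 fold change -0.60, SE 0.215, edgeR adjusted p = 0.0569). DESeq2 called the difference (adjusted p = 0.0133). It was also called by edgeR with DESeq2's size factors (adjusted p = 0.047), with no filter on low counts (0.00163), without WT cDC1 replicate 2 (log2 fold change -1.0, adjusted p = 0.001) and once each library's trend over gene length was removed (-0.91, adjusted p = 0.00424). The adjusted p ranged from 0.001 to 0.267 over 15 alternatives. Between the WT cDC1 libraries, replicate 2 minus replicate 3 was lower for longer genes (rho = -0.39 by Spearman, across 8399 genes averaging 10 CPM or more, which are not independent replicates). The part of this trend in the Nfil3 result was not tested beyond its removal above. Nfil3 has 2026 exonic bases, less than the median of 4789 bases over those genes.

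**Figure D1:**
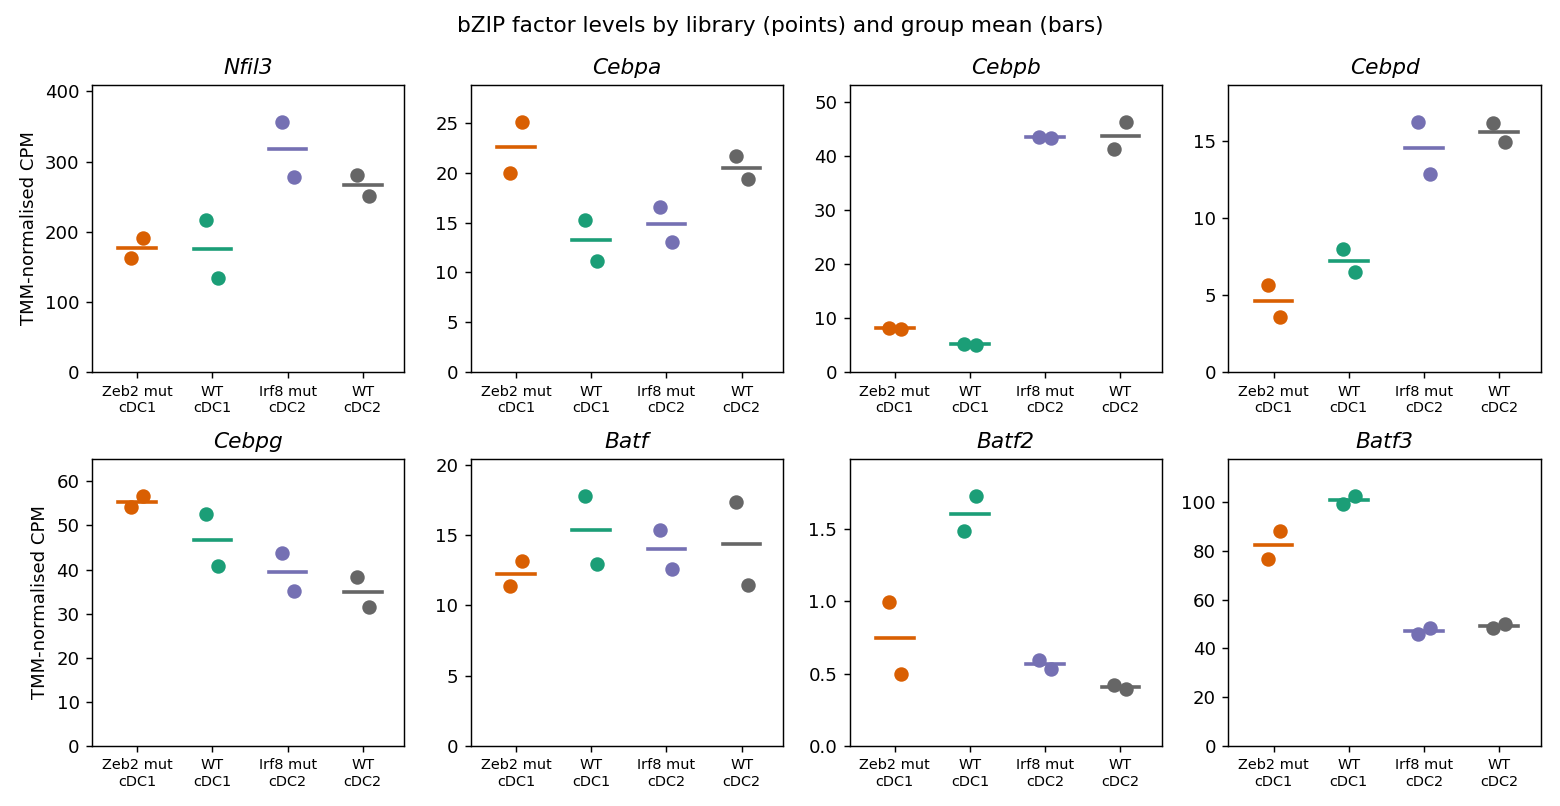
Level of each bZIP gene in TMM-normalised CPM on linear axes starting at 0, with a point per library and a bar at the mean of the 2 libraries of a group. Cebpb sits at 4.995 to 8.08 CPM in all 4 cDC1 libraries and at 41.2 to 46.2 CPM in all 4 cDC2 libraries, while Batf overlaps between all groups.

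The cell types were also compared in libraries other than the wild-type ones, between Zeb2 mutant cDC1 and Irf8 mutant cDC2, although genotype and cell type differ together there. Here 4 of 8 members were called, Batf3 higher and Cebpb, Cebpd and Nfil3 lower in Zeb2 mutant cDC1, where 27.9% of all genes were called, 12.8% higher and 15.0% lower. At an unadjusted p under 0.05 there were 6 members and 37.8% of all genes, DESeq2 called 5 members and 31.2% of the genes it tested, and the groups did not overlap for 6 members and 65.8% of all genes. The log2 fold change had the same sign in both comparisons for 6 of 8 members (75.0%), close to the 78.0% of all 20631 genes. The exceptions were Cebpa and Batf.

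Batf3 was at 76.8 and 88.1 CPM in Zeb2 mutant cDC1, against 45.9 and 48.3 CPM in Irf8 mutant cDC2 (log2 fold change 0.81, SE 0.127, edgeR adjusted p = 0.000812). Cebpb was at 8.08 and 8.02 CPM in Zeb2 mutant cDC1 and 43.5 and 43.3 CPM in Irf8 mutant cDC2, a 5.39-fold lower level (log2 fold change -2.43, SE 0.151, edgeR adjusted p = 1.26e-06). Both genes thus kept the order of the wild types, with little spread inside each group. Cebpd was at 5.66 and 3.60 CPM in Zeb2 mutant cDC1, against 16.2 and 12.8 CPM in Irf8 mutant cDC2 (log2 fold change -1.65, SE 0.261, edgeR adjusted p = 0.000863). Spidr, its neighbour on the other strand, was again in the same order, at 16.1 and 28.8 CPM. Nfil3 was at 162 and 191 CPM in Zeb2 mutant cDC1, against 356 and 279 CPM in Irf8 mutant cDC2. The groups did not overlap and the difference passed the test (log2 fold change -0.85, SE 0.215, edgeR adjusted p = 0.0138). It was lost without Zeb2 mutant cDC1 replicate 2 (adjusted p = 0.116) or without Irf8 mutant cDC2 replicate 2 (0.145).

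Cebpa stood the other way round in the mutants. It was at 20.0 and 25.1 CPM in Zeb2 mutant cDC1, against 16.6 and 13.1 CPM in Irf8 mutant cDC2, so that the cDC1 libraries were the higher ones (log2 fold change 0.60, SE 0.215, edgeR adjusted p = 0.0621; DESeq2 adjusted p = 0.0389). Cebpg did not pass (log2 fold change 0.49, SE 0.175, edgeR adjusted p = 0.0634), with 54.1 and 56.7 CPM in Zeb2 mutant cDC1 and 43.7 and 35.2 CPM in Irf8 mutant cDC2. Leaving out either WT cDC1 library, either WT cDC2 library or Irf8 mutant cDC2 replicate 2 brought it under the threshold (adjusted p = 0.012 to 0.0476), as leaving out either WT cDC1 library (0.0262 and 0.0159) or Irf8 mutant cDC2 replicate 2 (0.046) did for Cebpa. Batf2, at 58 and 27 counts in Zeb2 mutant cDC1 and 31 and 26 counts in Irf8 mutant cDC2, and Batf had overlapping groups.

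**Figure D2:**
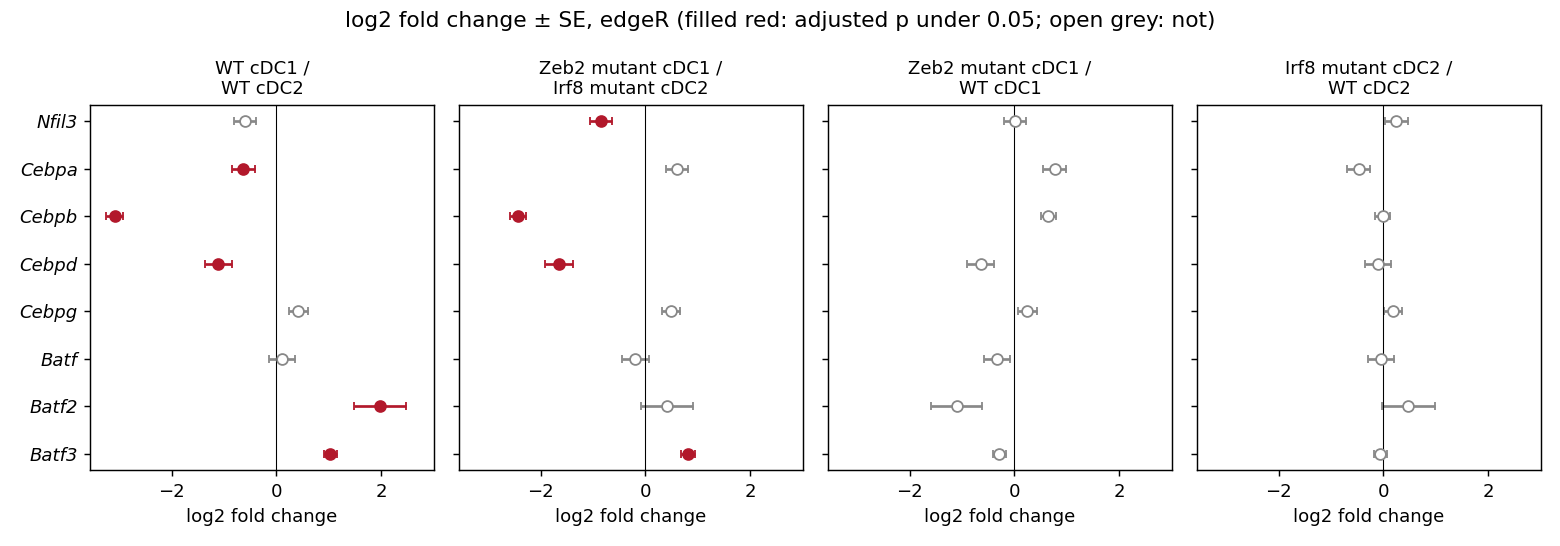
Log2 fold change of each bZIP gene on the x axis with its SE as the bar, in a panel per comparison, first group over second. Filled red points, which passed edgeR's adjusted p of 0.05, lie in the panels that compare cell types, with Cebpb at -3.09 and -2.43, and open grey points did not pass.

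Zeb2 mutant cDC1 was compared with WT cDC1 to see whether the altered NFIL3 and C/EBP sites in the Zeb2 enhancer went with other levels of the factors themselves. Of the 8 members 0 passed edgeR's test, where 0.0679% of all genes were called. At an unadjusted p under 0.05 there were 5 members, against 10.5% of all genes, and DESeq2 called Cebpb and Cebpa, against 2.27% of the genes it tested. The groups did not overlap for 6 of 8 members, as for 39.0% of all genes.

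Cebpa was at 20.0 and 25.1 CPM in Zeb2 mutant cDC1, against 15.3 and 11.1 CPM in WT cDC1 (log2 fold change 0.77, SE 0.216, edgeR adjusted p = 0.290, DESeq2 adjusted p = 0.0405). Cebpb was at 8.08 and 8.02 CPM in the mutant, against 5.27 and 4.995 CPM in wild type (log2 fold change 0.65, SE 0.149, edgeR adjusted p = 0.208, DESeq2 adjusted p = 0.0158). Both mutant libraries lay above both wild-type libraries for Cebpa and Cebpb, and below them for Cebpd. Tmem189, which overlaps Cebpb on the other strand, was also higher in the mutant, at 72.0 CPM against 65.5 CPM in wild type. The part of shared reads in the Cebpb difference was not tested. Cebpd was at 5.66 and 3.60 CPM, against 7.97 and 6.50 CPM in wild type (log2 fold change -0.64, SE 0.258, edgeR adjusted p = 0.423). The cDC2 markers Cd209a, Clec10a and Esam were also lower there, as given above. The median log2 fold change of the 9 cDC2 markers was -0.05, and Cd4 (0.48), Itgam (0.39), Dtx1 (0.24) and Clec4a4 (0.05) had positive values. The part of cDC2 transcripts in the Cebpd level was not tested. Batf3 was at 76.8 and 88.1 CPM, against 99.1 and 102 CPM in wild type (log2 fold change -0.29, SE 0.126, edgeR adjusted p = 0.460). Nfil3 averaged 176 ± 20.4 CPM in Zeb2 mutant cDC1 and 175 ± 58.4 CPM in WT cDC1 (SD, n = 2 each), with the mutant libraries between the wild-type ones. The remaining members, Cebpg, Batf and Batf2, had log2 fold changes of 0.25, -0.33 and -1.10 with edgeR adjusted p-values of 0.663, 0.693 and 0.465. Longer genes had higher log2 fold changes in this comparison (rho = 0.48 by Spearman, across the same 8399 genes), and edgeR called 0 members once that trend was removed.

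Markers of granulocyte precursors and neutrophils, cells in which C/EBP alpha and C/EBP epsilon are active, were summed. Of the 9 tested, edgeR called 0 in either mutant against its wild type. It called 0.0679% of all genes in the Zeb2 mutant and 0.0% in the Irf8 mutant. The summed level of 10 neutrophil markers, with no marker at 0 in any group, was 98.4 to 138 CPM in Zeb2 mutant cDC1 and 1.11 to 14.8 CPM in WT cDC1. It was 57.5 to 127 CPM in Irf8 mutant cDC2 and 2.07 to 29.5 CPM in WT cDC2. Not every marker followed its sum: Mmp8 had a log2 fold change of -0.53 in Irf8 mutant cDC2 (edgeR adjusted p = 0.991). Elane, a neutrophil elastase gene, averaged 8.40 ± 0.0401 CPM in Zeb2 mutant cDC1 and 0.664 ± 0.673 CPM in WT cDC1. Its mean was 3.68 ± 0.219 CPM in Irf8 mutant cDC2 and 0.312 ± 0.313 CPM in WT cDC2 (SD, n = 2 each). DESeq2 called Elane in both mutants (adjusted p = 1.1e-05 and 0.000183), and edgeR in neither (adjusted p = 0.160 and 0.371). DESeq2 also called Ltf in the Zeb2 mutant (adjusted p = 0.00215) and not in the Irf8 mutant (0.624). Cebpe, a further C/EBP gene, had 21 and 24 counts in Zeb2 mutant cDC1 and 0 counts in WT cDC1, where 0 counts allow up to 3 per library. In Irf8 mutant cDC2 Cebpe had 7 and 33 counts, against 0 and 12 counts in WT cDC2. It was called by edgeR in neither mutant (adjusted p = 0.312 and 0.931). Both mutant groups had a marker sum above that of their wild type. Cebpa had a log2 fold change of 0.77 in the Zeb2 mutant and -0.47 in the Irf8 mutant, and edgeR called neither (adjusted p = 0.290 and 0.792). The part of granulocyte precursors and neutrophils or their free RNA in the Cebpa level of either mutant was not tested. Of the neutrophil markers, 7 are also on the list of 14 myeloid genes linked to C/EBP factors described further on.

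Irf8 mutant cDC2 were compared with WT cDC2 to see whether the factors differed in cDC2 without the enhancer that BATF3 binds. Of the 8 members 0 passed edgeR's test, and 0 had an unadjusted p under 0.05, against 6.36% of all genes. DESeq2 also called 0 members, against 0.908% of the genes it tested, and edgeR called 0.0% of all genes. The groups did not overlap for 3 members, Cebpa, Batf2 and Batf3, and for 39.3% of all genes. Batf3 averaged 47.1 ± 1.67 CPM in Irf8 mutant cDC2 and 49.2 ± 1.22 CPM in WT cDC2, and Cebpb 43.4 ± 0.164 CPM in Irf8 mutant cDC2 and 43.7 ± 3.51 CPM in WT cDC2 (SD, n = 2 each). Cebpa was at 16.6 and 13.1 CPM in the mutant, against 21.7 and 19.3 CPM in wild type. The groups did not overlap (log2 fold change -0.47, SE 0.215, edgeR adjusted p = 0.792, unadjusted p = 0.0553). Nfil3 was at 356 and 279 CPM in the mutant, against 281 and 251 CPM in wild type (log2 fold change 0.25, SE 0.214, edgeR adjusted p = 0.942). Cebpd, Cebpg, Batf and Batf2 had log2 fold changes of -0.10, 0.18, -0.04 and 0.48.

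Whether the gap between cDC1 and cDC2 differed between the mutant pair and the wild-type pair was tested as the difference of those differences, which is also the effect in the Zeb2 mutant minus the effect in the Irf8 mutant. It was called by edgeR for 0 of 8 members, against 0.0194% of all genes, with 3 members at an unadjusted p under 0.05 against 7.62% of all genes. Cebpa had the largest difference toward the mutant pair, 1.24 on the log2 scale (SE 0.305, edgeR unadjusted p = 0.00221, adjusted p = 0.353). DESeq2 called it (adjusted p = 0.0220), as the only member, where it called 0.998% of the genes it tested. The gap of Cebpb was smaller in the mutant pair by 0.66 (SE 0.205, edgeR adjusted p = 0.467), and that of Batf3 by 0.23 (log2 difference -0.23, SE 0.178, edgeR adjusted p = 0.812).

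Levels of different genes were compared per length, as the deposited FPKM, which divides by gene length and library total. In WT cDC1 the order from high to low was Nfil3 at 105 and 69.3 FPKM, Batf3 at 61.2 and 67.4, Batf at 12.5 and 9.69, Cebpg at 9.26 and 7.61, Cebpa at 5.73 and 4.44, Cebpb at 3.46 and 3.49, Cebpd at 2.10 and 1.82, and Batf2 at 0.582 and 0.720 FPKM. Batf and Cebpg lay close together, with a ratio of 1.35 and 1.27 within a library, and the lower Nfil3 library was close to the higher Batf3 library. In WT cDC2 Nfil3 was at 132 and 122 FPKM, Batf3 at 28.8 and 30.7 and Cebpb at 26.0 and 30.1, so that Cebpb reached the level of Batf3. Behind them in WT cDC2 came Batf at 11.7 and 7.99, Cebpa at 7.81 and 7.19, Cebpg at 6.48 and 5.49, Cebpd at 4.10 and 3.92, and Batf2 at 0.158 and 0.152 FPKM.

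The makeup of the C/EBP family differed between the cell types. Cebpb made up 21.4% ± 1.20 of the summed FPKM of the 4 C/EBP genes in Zeb2 mutant cDC1 and 18.5% ± 2.31 in WT cDC1, against 63.7% ± 3.64 in Irf8 mutant cDC2 and 61.5% ± 4.13 in WT cDC2 (SD, n = 2 each). In cDC1 the largest share was that of Cebpg, at 39.4% ± 0.688 in the Zeb2 mutant and 44.4% ± 0.875 in wild type. Cebpa made up 34.1% ± 3.69 in Zeb2 mutant cDC1 and 26.7% ± 1.63 in WT cDC1, and 12.4% ± 1.34 in Irf8 mutant cDC2 and 16.5% ± 1.54 in WT cDC2. The sum itself was 25.4 and 26.7 FPKM in Zeb2 mutant cDC1 and 20.5 and 17.4 FPKM in WT cDC1, against 45.2 and 43.1 FPKM in Irf8 mutant cDC2 and 44.4 and 46.7 FPKM in WT cDC2. These shares are a description and were not tested.

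Batf3 dominated the BATF genes in both cell types. It made up 85.1% ± 0.143 of their summed FPKM in Zeb2 mutant cDC1 and 84.5% ± 2.97 in WT cDC1, and 74.4% ± 3.35 in Irf8 mutant cDC2 and 75.0% ± 5.83 in WT cDC2 (SD, n = 2 each). The sum was 59.6 and 66.6 FPKM in Zeb2 mutant cDC1 and 74.3 and 77.8 FPKM in WT cDC1, against 38.2 and 39.1 FPKM in Irf8 mutant cDC2 and 40.6 and 38.9 FPKM in WT cDC2. Almost all of the rest was Batf, and Batf2 stayed under 1% in the mean of each group (0.854% ± 0.100 in WT cDC1).

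**Figure D3:**
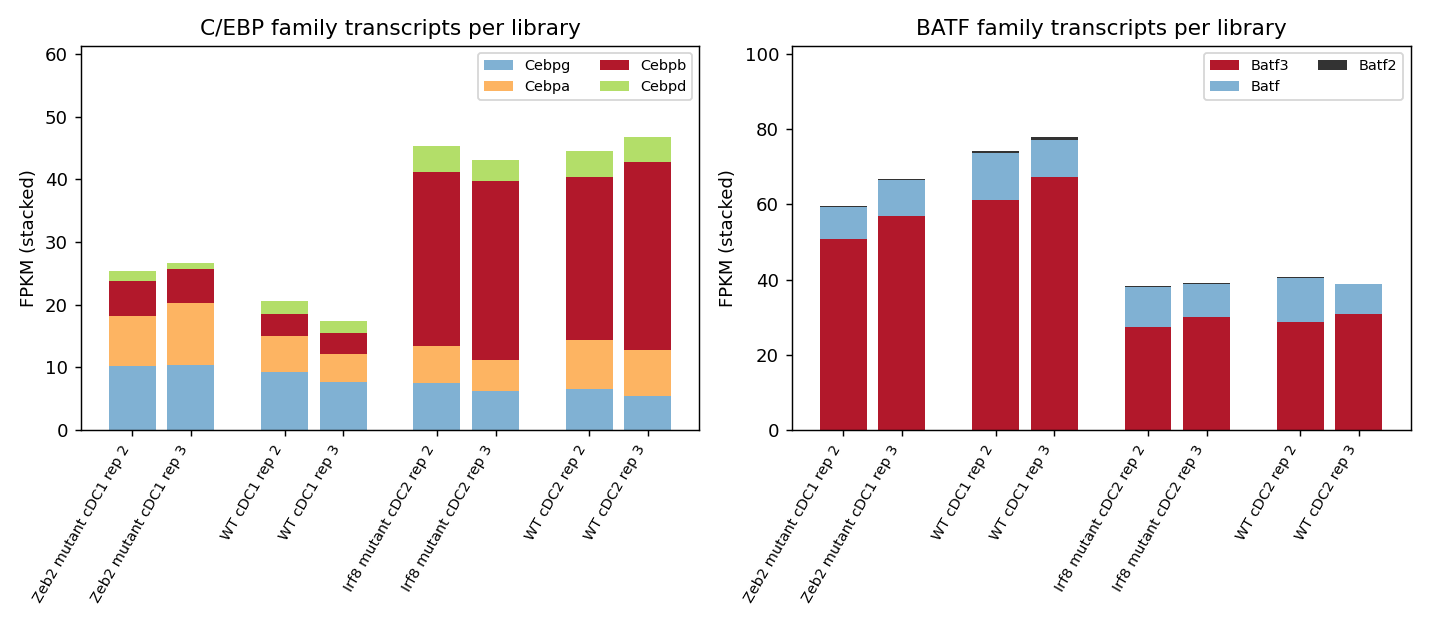
Stacked bars of deposited FPKM per library, for the C/EBP genes on the left and the BATF genes on the right, with groups and replicate numbers along the x axis. Cebpb takes 61.5% and 63.7% of the C/EBP sum in the cDC2 groups and 18.5% and 21.4% in the cDC1 groups, and Batf3 takes most of every BATF bar.

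Genes that work with these factors differed between wild types. Of 12 partners and circuit genes, 2 were higher and 6 lower in WT cDC1 than in WT cDC2, where 14.2% of all genes were higher and 15.9% lower. The median log2 fold change of the 12 was -0.64 against 0.03 over all genes. Irf8 and Id2, an inhibitor of E proteins, were the higher ones, with Id2 at 700.4 ± 209.7 CPM in WT cDC1 and 185 ± 14.9 CPM in WT cDC2 (SD, n = 2 each). Zeb2 was at 2.10 ± 0.00934 CPM in WT cDC1 and 200.4 ± 0.177 CPM in WT cDC2. Irf4, whose product also pairs with BATF proteins, was at 11.8 ± 0.572 CPM in WT cDC1 and 483 ± 16.5 CPM in WT cDC2. The E protein gene Tcf4 (log2 fold change -1.86), Bcl6 (-1.41), Etv6 (-0.77) and Spi1 (-0.51), which encodes PU.1, were lower too. Tcf3, Tcf12, Zbtb46 and Gfi1 did not pass, with log2 fold changes of -0.17, 0.12, 0.32 and -1.16. Of these 12 genes, 0 passed edgeR's test in Zeb2 mutant cDC1 or in Irf8 mutant cDC2 against wild type, where 0.0679% and 0.0% of all genes did. Bcl6 (0.45) had an unadjusted p under 0.05 in the first, and Id2 (0.61) and Bcl6 (-0.59) in the second. DESeq2 called Bcl6 in Irf8 mutant cDC2 (adjusted p = 0.0413).

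Among other bZIP genes, more were called lower than higher in cDC1. Of 45 on the list 44 were tested, and in WT cDC1 3 were higher, 16 lower and 25 not called, where 14.2% of all genes were higher and 15.9% lower, with a median log2 fold change of -0.52, against 0.03 over all genes. Among the largest called changes at 5 CPM or more were the AP-1 gene Fosl2 (log2 fold change -2.57), the heme-regulated repressor gene Bach1 (-2.36) and Crebl2 (-1.72) on the lower side. On the higher side were Creb3 (1.02) and Xbp1, a regulator of the secretory pathway on which cDC1 depend (0.73). In the mutant pair 3 were higher, 20 lower and 21 not called, where 12.8% of all genes were higher and 15.0% lower. The median there was -0.66 against -0.02 over all genes. The called bZIP genes included Fosl2 (-2.97), Crem (-2.81) and Nfe2 (-2.80) on the lower side, and Creb3 (0.86) and Xbp1 (0.56) on the higher side. Fosl2 averaged 84.8 ± 13.0 CPM in Zeb2 mutant cDC1 and 664 ± 156 CPM in Irf8 mutant cDC2 (SD, n = 2 each).

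**Figure D4:**
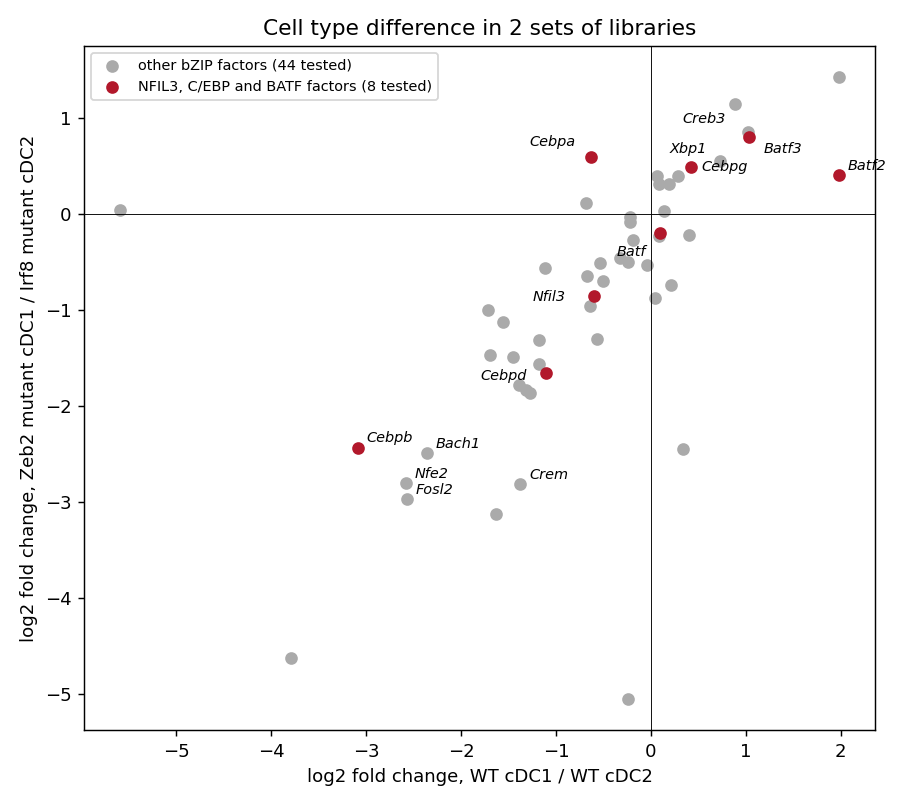
Log2 fold change of cDC1 over cDC2 in wild types (x axis) and in the mutant pair (y axis) for the 8 members (red) and 44 other bZIP genes (grey), with no shared library between the axes. Cebpb lies at -3.09 and -2.43, Batf3 at 1.03 and 0.81, and Cebpa in the upper left at -0.63 and 0.60.

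NFIL3 competes at clock genes with the activators DBP, TEF and HLF, which bind the same sites. Of 18 clock genes 17 were tested, and in each comparison of cell types 0 were higher and 12 lower in cDC1. Dbp, Tef and Hlf are also among the other bZIP genes counted above, and Dbp and Tef were called lower in both comparisons. Of all genes, 14.2% were higher and 15.9% lower in wild types, and 12.8% and 15.0% in the mutant pair. The median log2 fold change of the clock genes was -1.65 in wild types and -1.53 in the mutant pair, against 0.03 and -0.02 over all genes. The 4 that differed most at 5 CPM or more were the same in both: Rora (log2 fold change -3.86 in wild types and -4.21 in the mutant pair), Bhlhe40 (-3.45 and -3.90), the period gene Per2 (-2.74 and -3.01) and Cry2 (-2.02 and -2.05). Bhlhe40 averaged 142 ± 45.9 CPM in WT cDC1 and 1555 ± 34.6 CPM in WT cDC2. Dbp was at 2.34 ± 0.372 CPM in WT cDC1 and 5.62 ± 0.339 CPM in WT cDC2, and Tef at 20.4 ± 2.01 and 46.2 ± 4.12 CPM (SD, n = 2 each). The time of day of collection is not stated in the labels. Of the 17 genes edgeR called 0 in either mutant against its wild type. It called 0.0679% of all genes in the Zeb2 mutant and 0.0% in the Irf8 mutant.

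Of 14 myeloid genes linked to C/EBP factors, 0 were higher and 2 lower in WT cDC1 than in WT cDC2. Of all genes, 14.2% were higher and 15.9% lower. The median log2 fold change of the 14 was -0.85 against 0.03 over all genes. Both called genes encode growth factor receptors, Csf1r (log2 fold change -5.38) and Csf3r (-6.44). The most abundant of the 14, the cytokine gene Il1b, averaged 1506 ± 687 CPM in WT cDC1 and 2331 ± 198 CPM in WT cDC2, and the lysozyme gene Lyz2 840 ± 337 and 664 ± 2.11 CPM (SD, n = 2 each), both with edgeR adjusted p-values above the threshold (0.0974 and 0.388). In the Zeb2 mutant the list had a median log2 fold change of 3.49 with 0 of 14 called by edgeR, and in the Irf8 mutant 2.46 with 0 called. Of all genes, edgeR called 0.0679% in the Zeb2 mutant and 0.0% in the Irf8 mutant. Of the 14, 7 are the neutrophil markers described above.

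By likeness of pattern, measured as Pearson's r of log2(CPM + 1) over the 8 libraries among 9093 genes averaging 5 CPM or more, Batf3 was nearest to Alad (0.997), Trappc2l (0.996) and Mrpl12 (0.996). Cebpb was near to Vps35l (0.997) and Adgrg6 (0.996), Nfil3 to Chp1 (0.991), Mapre2 (0.986) and Ethe1 (0.985), and Cebpd to Fancg, Runx2 and Ddit3 (0.990, 0.990 and 0.987). For Cebpg, Batf and Cebpa the highest values were 0.966 with Cdc14b, 0.918 with Mrps6 and 0.884 with Dyrk1b. Genes that differ between the cell types score high together, and the 8 libraries are 4 groups of 2, so these values only describe the pattern.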

How the data were processed

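RNA of sorted splenic cDC1 and cDC2 (10 ng per library, SMARTer Ultra Low kit, 150-base paired-end sequencing, per the labels' protocols) was processed by the authors with bcl2fastq, STAR, Subread featureCounts and Salmon on the builds GRCm38 and mm10, per the submitters' processing notes. The strand setting and the treatment of shared reads are not stated in the labels. According to their headers, the deposited count column is the authors' whole number of reads for a gene, with totals of 49380686 to 58611821, and the relative Poisson error is larger on a count of 22 (Batf2) than on one of 18473 (Nfil3). The deposited CPM and FPKM columns follow from the counts and the deposited gene length within 1e-06, and the deposited TPM is the FPKM rescaled.

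Symbols came from a GRCm38 name table (55141 of 55487 IDs). Counts were fitted with edgeR 4.0.16 in R 4.3.3 (filterByExpr, TMM, robust quasi-likelihood, 1 coefficient per group over 8 libraries, 4 residual degrees of freedom) and called at an adjusted p under 0.05 over 20631 genes. The SE was taken as the size of the log2 fold change divided by the root of F. DESeq2 1.42.0 was an alternative, and an adjusted p that it gave as NA stayed NA. Other alternatives were its size factors, no filter, a replicate block, fits of the 2 groups alone, offsets for gene length, and leaving out each library. The edgeR script was tested on simulated data. Same-numbered libraries did not deviate together (residual correlations of -0.183 to 0.069).

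The members and lists were chosen with earlier results of these data known. Named genes were all members and partners, the 4 largest called changes per direction at 5 CPM or more among other bZIP and clock genes, the 3 most abundant C/EBP-linked genes, and the 3 nearest patterns; other list genes given were chosen after their values were seen. Of the genes this rule names, 2 are not reported here.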

Additional observations from a re-analysis of the deposited data

Results flagged for a closer look

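Cebpa was marked because both WT cDC1 libraries lay below both WT cDC2 libraries while both Zeb2 mutant cDC1 libraries lay above both Irf8 mutant cDC2 libraries. The difference of these gaps was 1.24 on the log2 scale (edgeR adjusted p = 0.353, DESeq2 adjusted p = 0.0220). The effects against wild type were opposite too, at 0.77 (log2 fold change) for the Zeb2 mutant and -0.47 for the Irf8 mutant. Batf2 was marked for opposite effects, at -1.10 (log2 fold change) for the Zeb2 mutant and 0.48 for the Irf8 mutant, at 22 to 101 counts per library. The difference between these effects of Batf2 did not pass edgeR's test (-1.58, adjusted p = 0.649). The groups of 2 libraries are too small for a check of single outlying samples.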

How the results depend on the processing

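Cebpb and Batf3 kept their calls in both comparisons of cell types under each of the 15 alternatives (largest adjusted p 7.65e-05 for Cebpb and 0.0143 for Batf3). Of 8 members, 5 were called between wild types, and 4 to 7 under the alternatives that kept all libraries. Leaving out a library gave 2 to 6. The mutant pair had 4 called, 4 to 6 with all libraries kept and 3 to 6 without a library. Zeb2 mutant against WT cDC1 had 0 called, 2 with DESeq2 and 1 with no filter on low counts, and leaving out a library gave 0. The Irf8 mutant had 0 throughout. The difference of gaps had 0, 1 with DESeq2 and 1 with no filter, and 0 without any library.

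Removing the trend over gene length turned the log2 fold change of Batf between wild types to -0.37, of Cebpb and Batf in the Irf8 mutant to 0.04 and 0.01, and of Cebpg in the difference of gaps to -0.02. Leaving out single libraries turned values that no test called. Between wild types Batf ranged from -0.16 to 0.45. In the mutant pair Batf ranged from -0.3 to 0.03 and Batf2 from -0.17 to 0.83. In the Zeb2 mutant Nfil3 ranged from -0.26 to 0.41. In the Irf8 mutant the ranges were -0.12 to 0.04 for Cebpb, -0.31 to 0.03 for Cebpd, -0.02 to 0.3 for Cebpg and -0.34 to 0.26 for Batf. In the difference of gaps they were -0.49 to 0.16 for Nfil3, -0.04 to 0.28 for Cebpg and -0.57 to 0.03 for Batf. The cause was not tested. Where a group kept 1 library, that library was assumed to vary like the others.

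The replicate numbers did not pair the libraries. With the number as a replicate block, 5, 5, 0, 0 and 0 members were called in the comparisons in the order above, with Nfil3 gained (adjusted p = 0.0438) and Cebpa lost (0.0578) between wild types and Cebpg gained in the mutant pair (0.0451). With crossed numbers, an alternative chosen after seeing the data, 4, 4, 0, 0 and 0 were called. Family shares from the deposited TPM were the same by construction, since that TPM is the FPKM rescaled, so they are no separate check. With 2 libraries a group, a missed call sets no limit on a difference, and Batf2 rests on 22 to 101 counts per library.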

Other observations

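Of the other bZIP genes, the AP-1 gene Fosb averaged 501 ± 12.03 CPM in Zeb2 mutant cDC1 and 788 ± 32.0 CPM in WT cDC1, and 1382 ± 79.8 CPM in Irf8 mutant cDC2 and 2546 ± 72.0 CPM in WT cDC2 (SD, n = 2 each). The log2 fold changes were -0.65 in the Zeb2 mutant and -0.88 in the Irf8 mutant. Neither passed edgeR's test (adjusted p = 0.0871 and 0.0507), and DESeq2 called both (adjusted p = 5.09e-05 and 1.73e-09). Fosb did not stand alone. DESeq2 also called Junb (-0.56, adjusted p = 0.00279) and Maff (-0.48, 0.0391) in the Zeb2 mutant. In the Irf8 mutant it called Atf3 (-1.0, adjusted p = 0.00535) and Fos (-0.72, 0.0331), while Jdp2 went the other way (0.93, not called). Fosb and the genes beside it were singled out after their values were seen.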
